A study of Mus musculus with 3 samples.

Results

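The genes described here are 10 neuronal regulators of microtubules: the microtubule-associated proteins Map1a, Map1b, Map2, Map4, Map6, Mapt (tau) and Dcx (doublecortin), and the stathmins Stmn1, Stmn2 and Stmn3. They were taken by symbol, not by any measured value, after the transcript identifiers of the count tables had been matched to GENCODE M21 on mm10. They are 10 of 20823 genes that have, in the tables, a coding transcript with untranslated regions at both ends. For each gene the longest such transcript was read, and all 10 were present in all 3 libraries. Their coding sequences (CDSs) range from 450 nucleotides (nt) in Stmn1 to 9045 nt in Map1a, so that the set holds very short and very long reading frames of one functional class.

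The data are ribosome profiling libraries, in which the RNA stretches protected by ribosomes are sequenced and counted, from primary cortical neurons of mouse grown in Neurobasal medium with B27 and Glutamax. One library was made for each of 3 treatments, each from 3 dishes pooled, by the treatment labels and sample titles: untreated neurons (WT, the submitters' name for no drug, with no genotype given), neurons given cycloheximide for 2 min (Chx), and neurons given harringtonine for the same 2 min, followed by a cycloheximide pulse (Harr). Cycloheximide halts elongating ribosomes, whereas harringtonine holds ribosomes at start codons while those already elongating go on and leave the message. All 3 lysates, WT included, were rinsed and lysed in buffers with cycloheximide at 100 µg/ml, digested with micrococcal nuclease and run on sucrose gradients from which monosomes were taken. A free-text description of the same samples disagrees with those labels, naming fractions and depolarised neurons of another experiment, and was not used. With 1 library per treatment, no difference below has a replicate check, no p-value is given, and every interval or standard error (SE) covers counting error only; fewer ribosomes per message and fewer messages cannot be told apart, since no RNA abundance was used here.

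The headers of the tables give totals of 35722483 (Chx), 9754412 (Harr) and 30219197 (WT) reads, of which 20212101, 3774674 and 16673167 fell in the CDSs of the longest transcripts. Harr was thus the shallowest library, and a count of 3 reads corresponds to 0.308 reads per 1000000 in Harr against 0.0840 in Chx and 0.0993 in WT. The neuronal markers Tubb3, Rbfox3, Snap25 and Syt1 summed to 1571 to 1888 reads per 1000000 in the 3 libraries with none at 0, and 4 astrocyte markers summed to 146 to 224. Microglial markers summed to 0.923 to 3.81 reads per 1000000, with 1 of 4, P2ry12, at 0 in Chx and 2, P2ry12 and Cx3cr1, at 0 in Harr. Oligodendrocyte markers summed to 6.42 to 9.53 with the same 2 of 4, Mog and Mobp, at 0 in every library, and Mki67 and Top2a, which mark dividing cells, to 35.1 to 53.3. The part of other cells in the members' counts was not tested.

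Microtubules are polymers of tubulin that grow and shrink at their ends. Map1a, Map1b, Map2, Map4, Map6 and Mapt bind along the polymer and stabilise it, Mapt mostly in axons and Map2 in dendrites, and doublecortin binds the lattice of immature, migrating neurons. Stathmins act the other way: they bind free tubulin dimers and keep them out of the polymer, and Stmn2 and Stmn3, unlike the cytosolic Stmn1, carry an extension that anchors them to membranes.

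Where 3 values follow each other without further mention, they are those of Chx, Harr and WT in that order. Reads were counted at their 5′ end. A ribosome sitting on a start codon protects RNA on both sides of it, so that its read begins upstream and is counted in the 5′ untranslated region (5′ UTR), not in the CDS. The sequences around the start codons of 9 members, where harringtonine is known to hold ribosomes, are therefore shown first, 12 nt before and 12 nt after each ATG along the transcript, with the start codon in capitals; the coordinates are those of the ATG on mm10. For Map1a, the longest transcript and the coding transcript with the most reads start in different exons, and both are given.

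Map1a (longest transcript, ENSMUST00000094639.9), chr2:121289635-121289637, plus strand: gcgggagtttccATGgcgaccgaagcc
Map1a (transcript with most reads, ENSMUST00000110639.7), chr2:121299419-121299421, plus strand: gtgctgcccaccATGgatggagtggcc
Map1b (ENSMUST00000064762.5), chr13:99516485-99516487, minus strand: agagccggcaggATGgcgaccgtggtg
Map2 (ENSMUST00000114013.7), chr1:66380512-66380514, plus strand: gagatctgaaagATGgccgacgagcgg
Map4 (ENSMUST00000035055.14), chr9:109978869-109978871, plus strand: cagtggtacagaATGgccgacctcagt
Map6 (ENSMUST00000127492.1), chr7:99268022-99268024, plus strand: tttgtggctaacATGgcgtggccgtgc
Mapt (ENSMUST00000106992.9), chr11:104282381-104282383, plus strand: ctttgaaccagtATGgctgaccctcgc
Stmn1 (ENSMUST00000030636.10), chr4:134470163-134470165, plus strand: cttctgttcgacATGgcatcttctgat
Stmn2 (ENSMUST00000029002.8), chr3:8509612-8509614, plus strand: cacatccctacaATGgctaaaacagca
Stmn3 (ENSMUST00000103045.3), chr2:181314210-181314212, minus strand: gccgccagcaccATGgccagcaccgta

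All 10 longest transcripts had a G directly after the ATG, which 49.2% of the 20639 transcripts read for all genes had. A purine 3 nt before the ATG was present in 9 of 10, the exception being the longest Map1a transcript, against 84.1% of all. Both features of the Kozak context, the sequence around a start codon that favours initiation, were thus present in 9 of 10 members and in 41.0% of all genes. The transcript of Map1a with the most reads has both. An ATG upstream of the annotated start was found in the 5′ UTR of 5 members (Map2, Map6, Dcx, Stmn1 and Stmn2), against 55.4% of all genes. These are matches of letters and say nothing of use.

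The first question the design poses is how far each drug moves reads from the CDS to the 5′ UTR. In Harr the 5′ UTR took most of the reads of all 3 stathmins. Stmn2 had 3688 reads in the 5′ UTR and 33188 in the CDS in Chx, 5224 and 1302 in Harr, and 1718 and 34859 in WT. The 5′ UTR thus held 9.98% of its reads under Chx (Wilson 95% interval 9.68 to 10.3), 76.0% under Harr (74.96 to 77.0) and 4.65% untreated (4.44 to 4.87). For Stmn3 the 5′ UTR and CDS reads were 2060 and 31856 in Chx, 3046 and 1304 in Harr, and 1046 and 27570 in WT, which put 6.06%, 62.2% and 3.60% of its reads in the 5′ UTR. For Stmn1 they were 2246 and 26827 in Chx, 2669 and 1742 in Harr, and 418 and 28185 in WT, or 7.71%, 57.6% and 1.44%. Although Harr was sequenced least, it held the most 5′ UTR reads of each of the 3 genes, in raw counts.

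Among the stabilising proteins, Map6 reached a share like that of the stathmins in its longest transcript, and Dcx and Mapt stood next. Map6, which protects microtubules from cold, had 1600 5′ UTR reads against 7693 CDS reads in Chx, 2275 against 1226 in Harr and 1574 against 4936 in WT, so that 17.2%, 64.7% and 24.2% of its reads lay in the 5′ UTR. Its share in the 2 libraries without harringtonine was the highest of the members. In the Map6 transcript with the most reads, whose CDS is 2721 nt, the shares were 13.9%, 50.3% and 19.0%. That share in Harr was below those of the stathmins. For Dcx the 5′ UTR reads were 797 (Chx), 1576 (Harr) and 736 (WT), against 13635, 1949 and 13596 in the CDS, or 5.50%, 39.9% and 5.12% of its reads. For Mapt they were 1550, 2751 and 1744 against 62387, 11667 and 61311, or 2.42%, 18.8% and 2.76%. Chx and WT lay close together for Dcx and Mapt, and Harr stood apart.

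The long proteins kept most of their reads in the CDS under every treatment. Map4, the form found also outside neurons, had 500 5′ UTR reads (Chx), 597 (Harr) and 239 (WT), which were 3.66%, 13.5% and 1.99% of its reads. Map2 had 3134, 3969 and 1529, or 4.05%, 12.2% and 2.21%. Map1b, which is abundant in growing axons, had 781, 604 and 341, or 0.535% (0.499 to 0.574), 1.45% (1.34 to 1.56) and 0.339% (0.305 to 0.377). The longest Map1a transcript had 5, 3 and 0 reads in its 35-nt 5′ UTR, beside 22259, 8008 and 16558 in the CDS, and gave no usable share. In the Map1a transcript with the most reads, whose CDS is 8331 nt, the 5′ UTR held 2101, 1614 and 924 reads, or 9.25%, 19.0% and 5.48%. Of the 4 exon pieces of that 5′ UTR, those of 83, 141 and 150 nt are coding in the longest transcript. The 150-nt piece alone held 68.3%, 68.5% and 52.4% of these 5′ UTR reads, which the longest transcript counts as CDS.

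**Figure D1:**
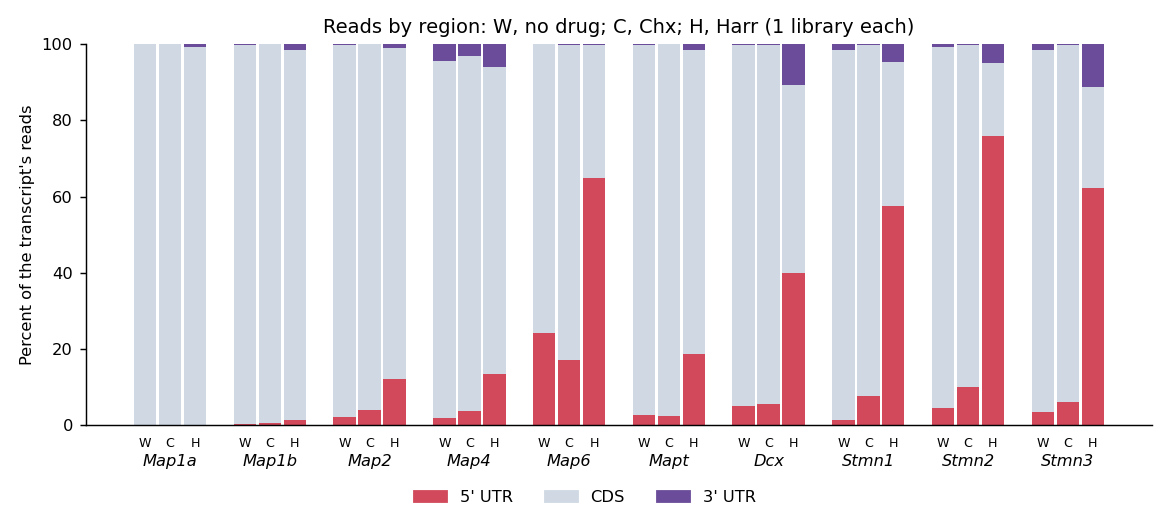
Share of each member's reads in the 5′ UTR, CDS and 3′ UTR of its longest transcript, in percent, as stacked bars with 1 bar per library: W for WT (no drug), C for Chx and H for Harr. The 5′ UTR share is highest in Harr for every member; leaving aside Map1a, with 5 reads or fewer, it runs there from 1.45% in Map1b to 76.0% in Stmn2.

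As odds of a read lying in the 5′ UTR rather than the CDS, Harr differed from Chx by a log2 ratio of 5.17 for Stmn2 (SE 0.05) and 5.17 for Stmn3 (SE 0.06), 4.19 for Stmn1, 3.79 for Dcx, 3.25 for Mapt, 3.16 for Map6, 2.09 for Map4, 1.73 for Map2 and 1.47 for Map1b (SE 0.08). A gene was called where the ratio was at least 2-fold with a 95% counting interval clear of 0 and the pair of libraries held at least 10 5′ UTR reads. By that rule the 9 members with enough reads were all higher in Harr than in Chx, where 88.7% of the 10805 genes tested were. The longest Map1a transcript, with 5 and 3 reads in its 5′ UTR, had too few to be tested, while the Map1a transcript with the most reads gave 1.22 (SE 0.05) and would be called. Most 5′ UTR reads of that second transcript are CDS reads of the longest one. The size went with CDS length: the median over all genes was 3.06 for CDSs under 600 nt, 2.95 from 600 to 1199 nt, 2.46 from 1200 to 1999 nt, 1.96 from 2000 to 3999 nt and 1.58 from 4000 nt. Each stathmin lay above the upper quartile of its class, 3.82, as did Dcx and Map6 for theirs, 3.62 and 3.03, while Mapt, Map4, Map2 and Map1b were within the quartiles of their classes.

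Against WT, the same 9 members were called higher in Harr, where 93.7% of 10383 genes were. The log2 ratios were 6.69 for Stmn1, 6.35 for Stmn2 and 5.94 for Stmn3, then 3.90 for Dcx, 3.05 for Mapt, 2.98 for Map4, 2.63 for Map2, 2.54 for Map6 and 2.13 for Map1b. The stathmins again lay above the upper quartile of their class, 4.70, whereas Dcx and Map6 were within theirs (2.87 to 4.49 and 2.45 to 3.93), as were Mapt, Map4, Map2 and Map1b. Against Chx the median of the members was 3.20, beside 2.45 over all genes. Against WT it was 3.45, beside 3.23, but it rests there on the few 5′ UTR reads of the longest Map1a transcript: it was 3.05 over the 9 other members and 3.01 with the transcripts of most reads, where that of all genes was 3.23, so that the side on which the members lie turns.

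The shift between Chx and WT was smaller and less even. Between Chx and WT, 2 members were called higher in Chx, Stmn1 at 2.50 (SE 0.08) and Stmn2 at 1.17 (SE 0.04), where 30.2% of 10482 genes were. Stmn3, at 0.77, Map2, at 0.90, Map4, at 0.89, and Map1b, at 0.66, were above 0 by more than counting error but under the 2-fold limit. Dcx was at 0.11 (SE 0.08), Mapt at −0.20 and Map6 at −0.62, so that Map6 and Mapt had relatively more 5′ UTR reads in the untreated neurons.

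Counts of Stmn1 carry a limit of their own. Of the 426 words of 25 nt in its CDS, 414 (97.2%) occur also in another gene, mostly in the processed pseudogene Gm11223 on chr4:69925630-69926079, an intronless copy of 450 nt. Gm11223 was itself given 12579 reads (Chx), 1347 (Harr) and 12597 (WT), which are 46.9%, 77.3% and 44.7% of the Stmn1 CDS reads. Reads of this copy and of Stmn1 cannot be told apart. With the reads of Gm11223 added to the CDS, a choice made after the counts were seen, the log2 odds ratios of Stmn1 became 3.92 for Harr to Chx, 6.40 for Harr to WT and 2.47 for Chx to WT. Whether the same reads were counted at both places is not known here. If they were, every value with the copy added counts them more than once. For Stmn2, 19 of 516 words are shared, Map1a and Map1b share 8 and 2, and the CDSs of the other members share none.

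Where the tables split a 5′ UTR into exons, the reads lay mostly in the piece that joins the start codon. In Mapt that piece is 13 nt long, on chr11:104282368-104282380, and it held 1364 of 1550 5′ UTR reads (Chx), 2331 of 2751 (Harr) and 1651 of 1744 (WT). Its read density, in reads per nt, was 1.88 (Chx), 17.2 (Harr) and 2.32 (WT) times that of the CDS. The corresponding 22 nt of Dcx held 647, 1370 and 643 reads, or 81.2%, 86.9% and 87.4% of the 5′ UTR reads. Their density was 2.37, 35.2 and 2.37 times that of the CDS. In Map4, 19 nt held 345, 376 and 181 reads, which were 69.0%, 63.0% and 75.7%, and in Stmn1 the last 60 nt held 2197, 2595 and 400, which were 97.8%, 97.2% and 95.7%. The pieces of Mapt, Map4 and Stmn1 hold the upstream parts of the sequences printed above.

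Map2 differed. Its 5′ UTR has 4 exons, and the 23 nt that join the start codon held only 422 reads (Chx), 530 (Harr) and 299 (WT), or 13.5%, 13.4% and 19.6%. An exon of 65 nt further upstream, on chr1:66322404-66322468, held 1238 reads (Chx), 1565 (Harr) and 215 (WT). Of the 4 exons it alone had odds against the CDS that were over 2-fold higher in Chx than in WT, at a log2 ratio of 2.39 (SE 0.11), beside 0.32 in the first exon, 0.62 in the exon that follows it and 0.36 in the 23 nt. Nearly all of these reads, 1232, 1564 and 212, began in its first 36 nt. The 5 upstream ATGs of Map2 all lie in the first exon, of 424 nt, which held 1047, 878 and 762 reads. The antisense gene Gm10558 lies on the opposite strand of the 65 nt and was given 0 reads in every library, so that these reads were all placed on the Map2 strand.

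The start codons of the stathmins lie in exons with very few coding nt, and these show a property of the counting. The start exons of Stmn1, Stmn2 and Stmn3 hold 13, 19 and 19 coding nt, and they were given 0, 0 and 3 reads in Chx and 0 in the other libraries, beside 250 or more in the next exon of each library. Over all genes with at least 1000 CDS reads in Chx and WT, start exons with 11 to 20 coding nt were at 0 in 84.3% of 127 genes (Chx), 88.2% (Harr) and 86.6% (WT). With 31 to 60 coding nt, 1.28%, 4.26% and 2.98% of 470 genes were at 0. A read of 25 nt or more that begins in these coding nt has to cross the junction of its exon. One that begins close upstream of the start codon can cross it too, and is counted in the 5′ UTR. How crossing reads were aligned was not tested, nor how far this bears on the 5′ UTR counts of the stathmins.

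The levels of the members in the CDS, in reads per kilobase of CDS per 1000000 reads of the library (RPKM), spanned over 10-fold in every library. In WT the order was Stmn2 at 2136 (exact Poisson 95% interval 2114 to 2159), Stmn1 at 2073, Mapt at 1813, Stmn3 at 1680, Map1b at 447, Dcx at 409, Map2 at 407, Map4 at 110, Map6 at 95.7 and Map1a at 60.6 (59.7 to 61.5). Dcx and Map2 did not differ beyond counting error there. Stmn2 and Stmn1 ranked 7 and 8 among all 20823 genes in WT, Mapt 12 and Stmn3 15. The place of Stmn1 depends on how reads that match both it and Gm11223 were counted. With the reads of that copy added Stmn1 would stand at 2451 (Chx), 704 (Harr) and 2999 (WT). It would then be first of the members in Chx and WT and second, after Mapt, in Harr. These levels are too high if the same reads were counted at both places.

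In Chx the order was nearly that of WT: Stmn2 at 1720, Stmn1 at 1669, Stmn3 at 1642, Mapt at 1561, Map1b at 549, Map2 at 378, Dcx at 347, Map6 at 126, Map4 at 105 and Map1a at 68.9. Only Stmn1 and Stmn3 had overlapping intervals. In Harr Stmn2 and Stmn3, and Stmn1 as counted without its copy, dropped below the 3 leading stabilising proteins: Mapt stood first at 1069, then Map1b at 562, Map2 at 529, Stmn1 at 397, Stmn2 at 247, Stmn3 at 246, Dcx at 181, Map4 at 108, Map1a at 90.8 and Map6 at 73.6. Only Stmn2 and Stmn3 overlapped. The order of the low members depends on the transcript. With the transcripts of most reads, Map6 stood at 102 in Chx, below Map4 at 105 with overlapping intervals. In Harr it stood at 85.4 and Map1a at 83.7, again with overlapping intervals. The rank of Map2 among all genes went from 209 in Chx and 196 in WT to 24 in Harr, and that of Map1b from 119 and 175 to 21, while Stmn2 went from 7 in both to 113.

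**Figure D2:**
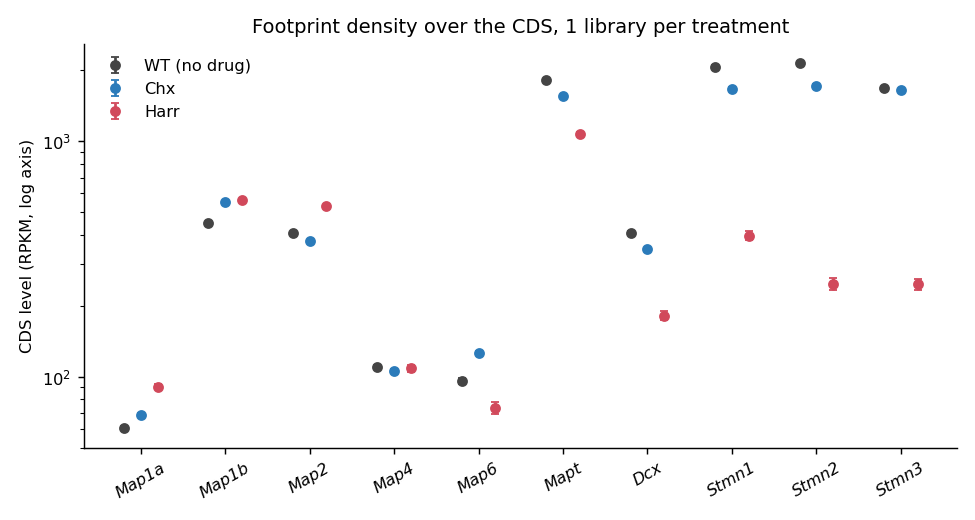
CDS level of each member in RPKM on a log axis, with 1 point per library (WT, Chx, Harr) and the exact Poisson 95% interval, which covers counting error only. Harr lies far below the other libraries for Stmn1, Stmn2 and Stmn3, at 397, 247 and 246, and above them for Map1a, Map1b and Map2, at 90.8, 562 and 529, a direction that turns for these 3 when libraries are scaled to mitochondrial CDSs.

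A measure within each library does not depend on how libraries are scaled. The CDS reads of the 3 stathmins were 36.2% of those of Map1a, Map1b, Map2 and Map4 together in Chx, 46.4% in WT and 5.41% in Harr. The 10 members together took 2.13% (Chx), 2.64% (Harr) and 2.19% (WT) of all CDS reads.

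The CDS levels of single members were then compared between libraries per 1000000 CDS reads, which sets the median of all genes near 0 (log2 −0.05 for Harr to Chx, 0.00 for Harr to WT and 0.03 for Chx to WT). Ratios below are relative to that median: scaling to the header totals would shift all genes by −0.55 and −0.51 in the comparisons of Harr with Chx and WT, and scaling to the mitochondrially encoded CDSs, which are translated by ribosomes that cycloheximide does not halt, by −1.38 and −1.31. A gene was called where it was at least 1.5-fold apart with a counting interval clear of 0.

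The 3 stathmins were lower in Harr under every scaling. Per 1000000 CDS reads, Stmn2 was at a log2 ratio of −2.25 (SE 0.04) to Chx and −2.60 to WT, Stmn3 at −2.19 (SE 0.04) and −2.26, and Stmn1 at −1.52 (SE 0.04) and −1.87. The ratios of Stmn1 with the reads of its copy added were −1.25 and −1.58. Stmn2 and Stmn3 lay below the lower quartile of the 1670 genes with CDSs under 600 nt, which was −1.25 to Chx and −1.39 to WT, and so did Stmn1; with its copy added it stood at that quartile to Chx and below it to WT.

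Dcx was at −0.39 to Chx, which was not called, and at −0.66 to WT, which was. Mapt, whose CDS of 1119 nt is close in length to the 1101 nt of Dcx, was at 0.00 (SE 0.01) and −0.25. The 3143 genes with CDSs of 600 to 1199 nt had a median of −0.54 to Chx, with quartiles at −1.01 and −0.07, so that Mapt lay above the upper quartile of its class to Chx and Dcx within the quartiles. To WT Mapt was within the quartiles, −1.05 and −0.02, and in its transcript with the longest CDS (1293 nt) it was within those of the next class to Chx too. Map6 was at −0.23 and 0.13. In the Map6 transcript with the most reads, whose CDS ends in another exon and measures 2721 nt, it was at 0.29 and 0.57.

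Per 1000000 CDS reads the 4 long members were higher in Harr, a direction that turns for each of them when libraries are scaled to mitochondrial CDSs, and for Map4 to WT also with header totals (−0.03). Map2 was at 1.03 (SE 0.01) to Chx and 0.89 to WT, Map1a at 0.95 (SE 0.02) and 1.10, Map4 at 0.59 (SE 0.03) and 0.49, and Map1b at 0.58 (SE 0.01) and 0.84. Map4 (1.502-fold to Chx, just inside the limit) and Map1b (1.497-fold, just outside it) differed by less than counting error. The median over the 836 genes with CDSs of 4000 nt or more was 0.66 to Chx, with quartiles at 0.44 and 0.91, and 0.77 to WT. Map2 lay above the upper quartile to Chx and Map1b within the quartiles. Map1a was above it in the longest transcript and within the quartiles, at 0.82, in the transcript with the most reads. To WT, with quartiles at 0.56 and 0.97, Map2 and Map1b were within them, and Map1a was above in the longest transcript and within, at 0.92, in the other.

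In all, 3 members were called higher in Harr than in Chx (Map1a, Map2 and Map4), where 17.0% of 11459 genes were, and 3 lower (the stathmins), where 24.3% were. Against WT, 3 were higher (Map1a, Map1b and Map2), where 19.6% of genes were, and 4 lower (Dcx and the stathmins), where 24.3% were. Between Chx and WT no member was called in either direction, where 1.99% of genes were higher and 1.61% lower. With header totals the split over all genes for Harr to Chx moved from 1948 higher and 2784 lower to 300 and 5602, and with mitochondrial CDSs to 11 and 10349. For Harr to WT it moved from 2241 and 2780 to 379 and 5102, and to 26 and 9804. The medians of the members were −0.11, −0.06 and −0.12 in the 3 comparisons, beside the −0.05, 0.00 and 0.03 of all genes. The largest differences between Chx and WT were 0.36 for Map6 and −0.35 for Stmn1 and for Stmn2.

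**Figure D3:**
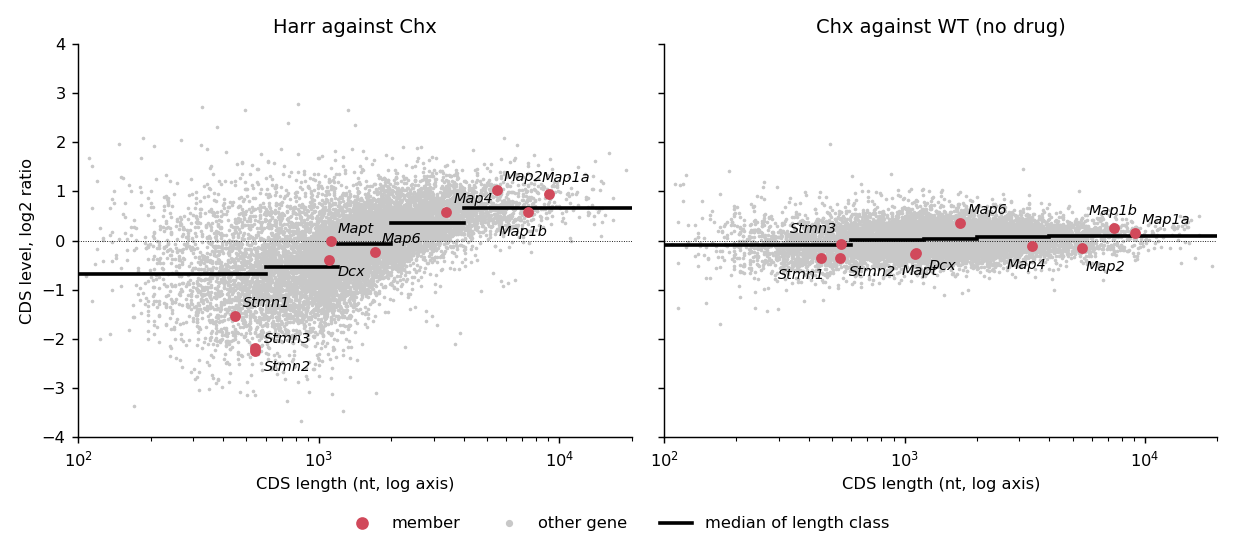
CDS level per 1000000 CDS reads, as a log2 ratio, against CDS length in nt on a log axis, for Harr against Chx (left panel) and Chx against WT (right panel), with the members in red, all other genes tested in grey and the median of each of 5 length classes as a black line. Against Chx the members run from −2.25 in Stmn2 to 1.03 in Map2, and scaling to mitochondrially encoded CDSs would lower all values of that panel by 1.38, which puts Map1a, Map1b, Map2 and Map4 below 0; between Chx and WT they lie from −0.35 to 0.36.

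The tables hold 1 count per exon, which gives the position of reads along a CDS in steps. For members over 1200 nt, the odds of a read lying in exons centred within 1200 nt of the start codon rather than beyond were compared. They were lower in Harr than in Chx by a log2 ratio of −2.52 (SE 0.06) in Map2, −2.41 (SE 0.09) in Map6, −1.97 (SE 0.04) in Map1b and −1.44 (SE 0.06) in Map4. Against WT the values were −2.63, −1.78, −1.66 and −1.42. Thus 4 of 5 members passed 2-fold in both comparisons, where 71.8% and 70.4% of 4316 genes did, and the median of all genes was −1.39 to Chx and −1.37 to WT. The 5th, Map1a, was at 0.37 (SE 0.18) and 0.44, from only 216 reads (Chx), 100 (Harr) and 153 (WT) in the first 564 nt of its longest transcript. Between Chx and WT none of the 5 passed 2-fold, where 1.34% of genes were higher and 0.255% lower.

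Ratios of Harr to Chx per exon show the gradient within single genes. They are given here per 1000000 CDS reads, so that 1 means the same share of the library. In Map1b the exons of 184, 102, 83 and 141 nt at the 5′ end stood at 0.646, 0.141, 0.362 and 0.173. The exon of 6490 nt that follows stood at 1.65, and the last 2 exons at 1.73 and 3.55. Reads in the 102-nt exon were 5328 (Chx), 140 (Harr) and 3508 (WT), and in the last exon 1332, 884 and 1457.

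In Map2 the first 3 exons, which end at nt 454, stood at 0.426, 0.287 and 0.388. The exon of 3741 nt that marks the high molecular weight form stood at 2.45, from 49406 reads (Chx), 22564 (Harr) and 45600 (WT). Exons 7 and 8, of 62 and 145 nt, came back to 0.780 and 0.809 although they lie beyond nt 4537 of this transcript, and the ratio then reached 3.12 in the last exon, with 3067, 1789 and 3312 reads. Of 16 coding Map2 transcripts in the tables, 1 holds the 3741-nt exon, whereas 9 and 10 hold exons 7 and 8, which in transcripts without the large exon lie much nearer to the start. How the reads divide over these transcripts was not tested.

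In Map4 the exons up to nt 664 stood at 0.942, 0.364, 0.336, 0.386 and 0.497, the exon of 1134 nt at 1.42, and the last exon over 30 nt at 3.16. The first of these, the start exon, had 4145 reads (Chx), 729 (Harr) and 3200 (WT), and the one after it 536, 36 and 671.

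Mapt gave the finest series, with 9 exons over 1119 nt. The start exon, with 4742 reads (Chx), 1146 (Harr) and 4926 (WT), stood at 1.29. The next 3 exons, of 66, 50 and 133 nt, stood at 0.174, 0.158 and 0.175, from 3150, 102 and 3489 reads in the first of them. The ratio then grew to 0.276, 0.446, 0.529 and 1.08, and to 2.27 in the last exon, which had 16532, 7022 and 15141 reads. In Harr this last exon, of 216 nt, held a density 3.12 times that of the whole CDS, against 1.37 times in Chx and 1.28 times in WT.

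Dcx ran the same way, from 0.413 and 0.381 in its first 2 exons through 0.764, 1.75 and 2.20 to 2.46 in the last 57 coding nt. Those 57 nt had 1140 reads (Chx), 524 (Harr) and 1390 (WT), a density of 1.61, 5.19 and 1.97 times that of the CDS. Each stathmin had its lowest ratio in the exon of 173 to 192 nt in the middle of the CDS. For Stmn2 the exons after the first stood at 0.243, 0.138, 0.257 and 0.730, for Stmn3 at 0.324, 0.133, 0.313 and 0.705, and for Stmn1, with the reservation on its copy, at 0.366, 0.237 and 0.546. In the 176-nt exon of Stmn3, reads were 19003 (Chx), 471 (Harr) and 14784 (WT).

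**Figure D4:**
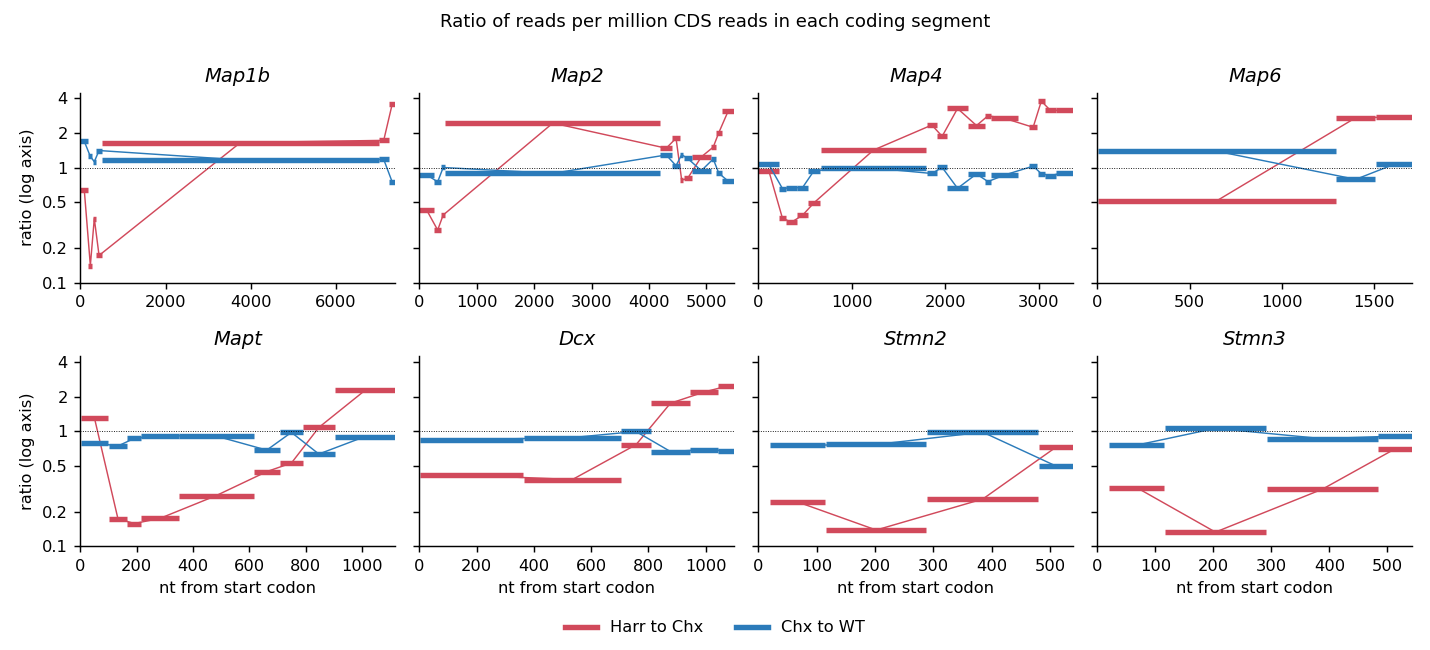
Ratio of reads per 1000000 CDS reads in each coding segment, on a log axis, against its position in the CDS in nt from the start codon, for 8 members; red bars are Harr to Chx, blue bars Chx to WT, and each bar spans 1 segment with at least 100 reads over the 3 libraries; others are not drawn. The red ratio is low near the start, at 0.141 in Map1b and 0.158 in Mapt behind the start exon and at 0.515 in the start exon of Map6, and rises toward the 3′ end, to 3.55, 2.27 and 2.75, while in Map4 the highest value drawn is in an inner exon, at 3.80; the blue ratios drawn lie between 0.498, in the last Stmn2 exon, and 1.70, in the Map1b start exon.

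Several members are made in alternative forms, and the exon counts show which of them were read. A coding exon of at least 30 nt was called low when its density was under 0.1 times that of the whole CDS in both Chx and WT. In the longest transcripts 2 of 72 such exons were low, where 1.25% of 42071 exons of genes with at least 1000 CDS reads in Chx and WT were. Both are the first exons of the long Map1a form: 238 nt on chr2:121289635-121289872 with 56 reads (Chx), 13 (Harr) and 35 (WT), and 102 nt on chr2:121290720-121290821 with 17, 8 and 10. The 150 nt in front of the ATG of the other Map1a transcript, on chr2:121299269-121299418, which are coding in the long form, held 1435, 1105 and 484 reads.

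Of 12 coding exons of at least 30 nt that only other transcripts of the members hold, 9 were low, where 54.7% of 2056 such exons were in the genes with at least 1000 CDS reads in Chx and WT. In Mapt the exon of 759 nt on chr11:104298498-104299256, which belongs to the large form of tau, had 115 reads (Chx), 10 (Harr) and 119 (WT). The 133-nt exon of the longest transcript had 5309, 173 and 4788 by comparison. Mapt exons of 87 nt (55, 3 and 66 reads), 87 nt (9, 0 and 5), 198 nt (12, 1 and 16) and 54 nt (14, 3 and 23) were low as well, as was a 711-nt version of the large one. In Map4 the exon of 3180 nt on chr9:110037288-110040467 had 5, 9 and 2 reads, whereas the alternative exon of 1453 nt on chr9:110052070-110053522 had 3153, 521 and 3000 and was not low. In Map2 an exon of 246 nt had 7, 0 and 7 reads, and one of 93 nt, described next, was low too. The alternative last exon of Map6, 1018 nt, had 2232, 1041 and 1783 reads and was not low.

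**Figure D5:**
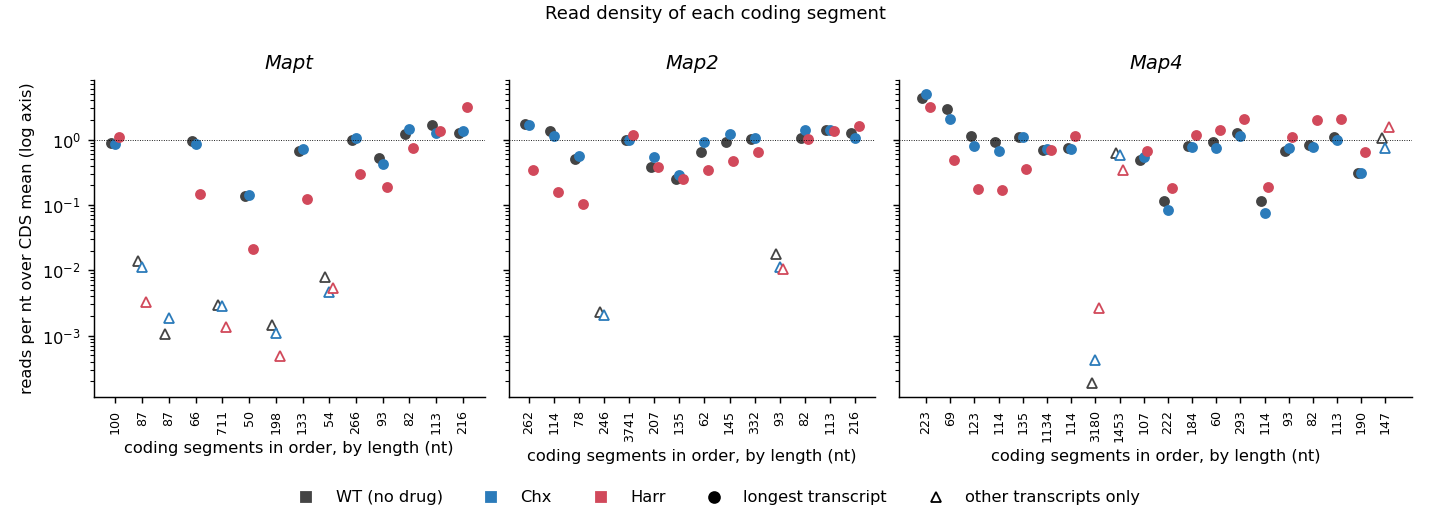
Reads per nt of each coding segment of at least 30 nt in Mapt, Map2 and Map4 relative to the mean of the CDS, on a log axis, with segments in genomic order and named by their length in nt; filled circles belong to the longest transcript, open triangles to other transcripts only, and values of 0 are not drawn; the 711-nt segment of Mapt stands for the 759-nt one, which ends with it. The open triangles lie under 0.1 in Chx and WT in all but the segments of 1453 and 147 nt of Map4.

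Map2 and Map4 encode tubulin-binding repeats in exons of matching length, which allows the same exon to be compared between them. Another member holds repeat exons of matching length as well and is left out of this comparison. A repeat exon of 93 nt, on chr1:66431527-66431619 in Map2 and chr9:110072613-110072705 in Map4, is 63.4% identical between the 2 genes, and its use differed widely. In Map4 it had 258 reads (Chx), 108 (Harr) and 206 (WT), and in Map2, where the longest transcript lacks it, 14, 5 and 20. Set against the 82-nt exon that follows it in each gene, its density per nt was 94.8% (95% counting interval 79.5 to 113), 56.0% (44.1 to 71.4) and 81.5% (67.4 to 98.4) for Map4. For Map2 it was 0.809% (0.50 to 1.41), 1.03% (0.486 to 2.61) and 1.67% (1.11 to 2.65). The intervals of the 2 genes do not overlap in any library. The 82-nt exon of Map2 had 1525, 430 and 1056 reads, and that of Map4 240, 170 and 223.

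Matching exon lengths also tie the other members of each family together. Map1a and Map1b share exons of 102, 83, 141 and 156 nt, of which the last, at the 3′ end of the CDS, is 77.6% identical and the others 51.8% to 59.0%. In Map1b the 102-nt exon had 5328 (Chx) and 3508 (WT) reads, and in Map1a the one of the same length had 17 and 10. The stathmins share an exon of 192 nt that is 73.4% to 75% identical among them, with 9344, 413 and 9997 reads in Stmn1, 7105, 341 and 5964 in Stmn2, and 7703, 450 and 7362 in Stmn3. Per nt these were 48.7, 37.0 and 40.1 reads in Chx and 52.1, 31.1 and 38.3 in WT, with Stmn1 highest and Stmn2 lowest in both.

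Beyond the stop codon, where no translation is annotated, the members had few reads in Chx and WT and relatively more in Harr. Per 100 CDS reads, the 3′ UTR of Stmn3 held 0.295 reads (Chx), 42.1 (Harr) and 1.72 (WT), that of Stmn2 0.268, 26.8 and 0.972, that of Dcx 0.345, 21.6 and 0.405, and that of Stmn1 0.242, 12.8 and 1.62. In the other members, Map4 left aside, it held at most 0.312 (Chx), 1.95 (Harr) and 0.233 (WT). The log2 odds ratio of 3′ UTR to CDS between Harr and Chx was 7.15 for Stmn3, 6.64 for Stmn2, 5.96 for Dcx, 5.72 for Stmn1, 5.34 for Map1a (SE 0.70), 4.51 for Mapt and 4.23 for Map1b, beside a median of 3.76 over 5216 genes. Map6 lay below that median, at 1.79 (SE 0.49), from 24, 13 and 7 reads. Between Harr and WT the median over 5797 genes was 2.59, with Map1a at 2.59, Map2 at 2.58, Map1b at 2.76, Map6 at 2.86 (SE 0.66) and Stmn1 at 2.98 near it, and Mapt at 3.50, Stmn3 at 4.61, Stmn2 at 4.78 and Dcx at 5.73 above. The 3′ UTR of Map4, with 1.16, overlaps a coding exon of another Map4 transcript, and that of Map2, with 4.36, overlaps other Map2 transcripts too.

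In Harr most of these 3′ UTR reads lay close behind the stop codon in Dcx, Mapt, Map2 and Stmn1, for which the tables give a short window there, whereas in Chx those of Dcx and Mapt did not. In Dcx, the first 78 of 7709 nt held 388 of 421 reads in Harr (92.2%), 6 of 47 in Chx and 30 of 55 in WT. In Mapt the first 32 of 3903 nt held 106 of 227 reads in Harr, 1 of 53 in Chx and 35 of 105 in WT, and the first 248 nt held 176, 10 and 54. In Map2 the first 181 of 3576 nt held 317 of 340 in Harr, 40 of 63 in Chx and 126 of 145 in WT. In Stmn1 the first 96 of 440 nt held 193 of 223 in Harr, 48 of 65 in Chx and 435 of 458 in WT.

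Several members had more 3′ UTR reads in WT than in Chx, the stathmins with 458 against 65 in Stmn1, 339 against 89 in Stmn2 and 474 against 94 in Stmn3, at similar CDS counts. The log2 odds ratios of Chx to WT were −2.74, −1.85 and −2.54, beside a median of −0.93 over 4591 genes. Map1a, at −2.75 (SE 0.75) from 4 and 22 reads, Map2 at −1.78, Map1b at −1.48 and Mapt at −1.005 (SE 0.24) also lay below that median, while Map4 at −0.50, Dcx at −0.23 (SE 0.29) and Map6 at 1.07 (SE 0.60), from 24 and 7 reads, lay above it. The last 16 coding nt of Stmn1 held 9.81% to 10.2% of the reads of its last coding exon in Chx, against 30.97% to 31.3% in WT and 33.7% to 41.1% in Harr, at 22.2% of its length.

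A wider list of 34 further microtubule genes, none of them members, was read in the same way, and 32 had the 100 CDS reads needed. Of these 32, 9 were called higher in Harr than in Chx and 6 lower, with a median of 0.22, where 17.0% and 24.3% of all genes were. Against WT 12 were higher and 5 lower, with a median of 0.34, where 19.6% and 24.3% of all genes were. By group, for Harr to Chx, the end-binding and plus-end proteins, which ride on growing ends, had 5 higher and 1 lower of 8. The kinases that phosphorylate microtubule-associated proteins, counted with an activator that is not itself a kinase, had 1 higher and 3 lower of 7. The activator was among the 3 lower. The other stathmins and microtubule-associated proteins had 3 higher and 1 lower of 7, and the doublecortin kinases and the minus-end proteins 0 of 3 each in either direction. A further group is not reported here, so that these counts do not add up to those of the list. Against WT, 3 of 3 minus-end proteins were called higher. The 5′ UTR odds were called higher in Harr than in Chx in 28 of 32, a share near the 88.7% of all genes. These 32 had enough 5′ UTR reads and are not all the same genes as the 32 above.

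The 3 highest of the wider list were Ckap5, a microtubule polymerase with a CDS of 6099 nt, at 1.33 (12488, 5871 and 11832 reads), Map7d2 at 1.07 (2346 nt) and Map9 at 0.96 (1941 nt). The 2 lowest were the kinase Cdk5 at −1.51 (879 nt, with 1916, 125 and 1661 reads) and Stmn4 at −1.34 (612 nt, with 9806, 723 and 11871). Stmn4, the remaining neuronal stathmin, thus stood on the same side as the 3 members. The 3 highest would drop by 1.38 under the mitochondrial scaling, which turns each of them below 0.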

How the data were processed

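Ribosome footprints of 3 libraries of primary mouse cortical neurons were analysed from 9 deposited tables, 1 for the 5′ UTR, CDS and 3′ UTR of each library. Per the file headers, the tables were made with Plastid on mm10: reads of 25 to 100 nt, freed of ribosomal reads and duplicates, were counted at their 5′ end with no offset in every segment of every transcript. For calling open reading frames in these libraries the study's methods name TopHat on the transcriptome, with reads of several matches kept, and for its other libraries counted with Plastid they name Rsubread. Which alignment these tables were counted from is not given in the sources used here, and the removal of duplicates can lower counts at narrow, dense sites. The authors deposited whole read counts, the coverage signal in counts per nucleotide, and RPKM. Only the counts were carried into the results, and RPKM was recomputed from them with the total in each header. A region of a transcript is the sum of its segments, and a transcript with no CDS is counted whole as 5′ UTR.

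Identifiers were matched to GENCODE M21 (99.1% of 142446 with version, 99.4% without), and the longest coding transcript of each of 20823 genes was taken. Sequences were read from the GENCODE mm10 reference. Shares have Wilson 95% intervals, levels exact Poisson intervals, and ratios between libraries a standard error from the counts after 0.5 was added to each. Ratios of region counts are log2 odds ratios, called at 2-fold with at least 10 5′ UTR reads, and CDS ratios, per 1000000 CDS reads, were called at 1.5-fold with at least 100 CDS reads over the 3 libraries. All were computed on all genes, with background shares from the same rule, in Python 3.11.15 with numpy 2.4.6, pandas 2.3.3, scipy 1.17.1 and matplotlib 3.10.9, and tested on simulated data first. With 1 library per treatment no test across samples could be made. The genes named are the 10 members and, of a wider microtubule list, those with the 3 highest and 3 lowest CDS ratios of Harr to Chx, of which 1 is not reported here; pseudogenes and overlapping genes were named after their counts were seen. The members, the lists and the rules were chosen with earlier results of these data known. Alternatives were another transcript choice, pseudocount, scaling, position boundary and low-density limit, and the addition of pseudogene reads to Stmn1, chosen after seeing the data.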

Additional observations from a re-analysis of the deposited data

How the results depend on the processing

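The direction of CDS ratios depended on the scaling. With libraries scaled to mitochondrially encoded CDSs, the log2 ratio of Harr to Chx turned to −0.44 for Map1a, −0.80 for Map1b, −0.35 for Map2, −0.80 for Map4 and −1.38 for Mapt, and that of Harr to WT to −0.22 for Map1a, −0.47 for Map1b, −0.42 for Map2, −0.83 for Map4 and −1.18 for Map6. Members called higher in Harr than in Chx went from 3 to 0 with that scaling and with header totals, and those called lower from 3 to 8 and to 5. Against WT, members called higher went from 3 to 0 under both scalings and those called lower from 4 to 7 with the mitochondrial one. Scaling by the median of ratios brought Map1b, at 0.64, over the limit for Harr to Chx. With the transcript of the longest CDS, Map4, at 0.58, was no longer called. Under a density limit of 0.2 in place of 0.1, low exons of the longest transcripts went from 2 to 6. The stathmins were called lower in Harr under every alternative run. Map1a, Map2 and Map4, at 0.40, 0.49 and 0.04 to Chx, stayed above 0 but fell under the limit with header totals, where Map6 and Dcx, at −0.78 and −0.93, passed it. No paired analysis was possible because each treatment is 1 library, and for the same reason no replicate could be left out. Depth limits the Harr counts of short exons. The 5′ UTR of the longest Map1a transcript held 5, 3 and 0 reads, against 2101, 1614 and 924 in that of the transcript with the most reads. Most of the latter are CDS reads of the longest transcript.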
